A study of Mus musculus with 6 samples.

Results

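PU.1, the protein product of Spi1, was followed together with 9 other transcription factors of the ETS family through erythroid differentiation of MEL cells. The members were given by name (Spi1, Spib, Spic, Fli1, Erg, Ets1, Ets2, Etv6, Elf1 and Gabpa) and make up 10 of the 23896 genes with a symbol in the count files. Each gene was represented by its RefSeq transcript with the highest mean count over the 6 libraries. MEL is a mouse erythroleukemia line blocked at an early erythroid stage. The data are poly(A) mRNA-seq libraries of untreated MEL cells (day 0) and of MEL cells after 2 and 4 d in 2% DMSO, an inducer of erythroid maturation, with 2 libraries per day described as biological replicates. All groups are the same cell line with no genetic change between them, and cells kept for 2 or 4 d without DMSO were not analysed here, so time in culture and treatment cannot be told apart.

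ETS factors share a DNA-binding domain that recognises a GGAA core, and they differ in the flanking bases they prefer, in their partners and in the cells that make them. PU.1 drives myeloid and B-lymphoid development and binds GATA-1, the central erythroid transcription factor, with each protein able to block the other. In erythroleukemias caused by Friend virus, integration of the provirus next to Spi1 or next to Fli1 keeps these genes on in erythroid precursors, and Spi1 is regarded as the driver oncogene of MEL cells.

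The feature that makes these genes a family is the third helix of the ETS domain, which lies in the major groove of DNA. Its coding sequence is shown for all 10 members, because it holds what they share, a pair of arginine codons whose side chains contact GGAA, and shows how close each is to Spi1. Each line gives 39 coding bases 5′ to 3′ from the transcript annotation of GRCm38 (GENCODE M21), with the 2 arginine codons in capitals.
Spi1: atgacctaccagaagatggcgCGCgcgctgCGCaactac
Spib: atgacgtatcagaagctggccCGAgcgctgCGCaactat
Spic: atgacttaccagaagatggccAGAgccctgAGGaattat
Fli1: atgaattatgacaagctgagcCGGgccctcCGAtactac
Erg: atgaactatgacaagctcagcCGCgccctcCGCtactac
Ets1: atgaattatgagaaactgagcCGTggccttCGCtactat
Ets2: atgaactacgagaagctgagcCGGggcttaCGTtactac
Etv6: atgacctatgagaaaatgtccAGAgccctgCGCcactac
Elf1: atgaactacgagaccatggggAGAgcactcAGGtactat
Gabpa: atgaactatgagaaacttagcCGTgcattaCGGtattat

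Spi1 carries this stretch in the last of its 5 exons, at chr2:91115248-91115286 on the plus strand. In the 2 other members of its subfamily, Spib matched Spi1 at 33 of the 39 bases and Spic at 30. Among the more distant members, Etv6 matched Spi1 at 30 bases, Erg at 27, Ets2 and Elf1 at 26, Fli1 at 25, Ets1 at 24 and Gabpa at 22. Fli1 and Erg matched each other at 35 of 39 bases. Ets1 and Ets2 matched each other at 31, and each of them matched Fli1 at 32. Codon choice differs as well as protein sequence, so these counts compare coding bases and not binding preference.

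Transcript counts summed to between 35294930 and 53899476 per library. A read appears to count for each transcript that shared it, since transcripts of a gene such as Ets1 can hold identical counts. The floor of detection was taken here as 3 counts, which corresponded to 0.0604 to 0.0831 CPM (read counts scaled to library size, with TMM-adjusted sizes). The erythroid label of the line was checked first. Of 10 erythroid marker genes, Ahsp was not analysed here and the other 9 all rose from day 0 to day 4, with a median log2 fold change of 4.10. Their summed level was 703 to 776 CPM on day 0, 4107 to 4869 on day 2 and 17358 to 19429 on day 4. Of 21 markers of T and B cells, macrophages, granulocytes, megakaryocytes, endothelium and fibroblasts, 9 had at most 3 counts in every library, and Cd8a, Ms4a1, S100a8 and Cdh5 had none. The summed level of the 21 was 214 to 276 CPM on days 0 and 2 and 546 to 620 CPM on day 4. Most of it came from the megakaryocyte marker Itga2b (531 and 606 CPM on day 4). The megakaryocyte markers did not move together. Pf4 fell from 57.4 and 42.6 CPM on day 0 to 10.2 and 8.93 CPM on day 4. Gp9 was at 1.52 and 1.09 CPM on day 0 and 1.94 and 2.14 CPM on day 4. The part of the rise in the summed level in the results that follow was not tested. In bulk RNA, fewer cells with a transcript and less of it per cell cannot be told apart.

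Spi1 (NM_011355, chr2:91082374-91115759, GRCm38) was the member that changed most in size of fold. Its counts were 4046 and 5959 on day 0, 503 and 580 on day 2 and 391 and 301 on day 4, which is 99.2 and 120.0 CPM, then 12.0 and 11.8 CPM, then 10.8 and 6.65 CPM. Both untreated libraries lay far above all 4 treated ones, and the day 2 and day 4 values did not overlap. Day means were 109.6 ± 14.8 CPM, 11.9 ± 0.172 CPM and 8.74 ± 2.96 CPM (SD, n = 2). The fall from day 0 was 9.19-fold by day 2 (log2 -3.20, SE 0.20, edgeR quasi-likelihood adjusted p = 4.3e-07) and 12.6-fold by day 4 (log2 -3.66, SE 0.20, edgeR adjusted p = 9.11e-08).

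Most of the Spi1 fall came in the first step. On the log2 scale 87.5% of the decrease to day 4 had taken place by day 2, when 10.9% of the day 0 level was left, against 7.98% on day 4. From day 2 to day 4 the fitted change was -0.46 (SE 0.20) and did not pass the test (edgeR adjusted p = 0.0992). The size of that step depended on the day 4 libraries, since it was -0.84 without replicate 1 of day 4 (edgeR adjusted p = 0.00924) and -0.14 without replicate 2 (edgeR adjusted p = 0.641). At -0.47 it also passed the test without either day 0 library (edgeR adjusted p = 0.0281 without replicate 1 and 0.0304 without replicate 2). The difference between the 2 steps was itself past the threshold, at 2.74 log2 units (SE 0.35, edgeR adjusted p = 0.000386). Among 12381 tested genes, 162 fell further than Spi1 by day 2 and 236 by day 4, which describes its place and is not a test.

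**Figure D1:**
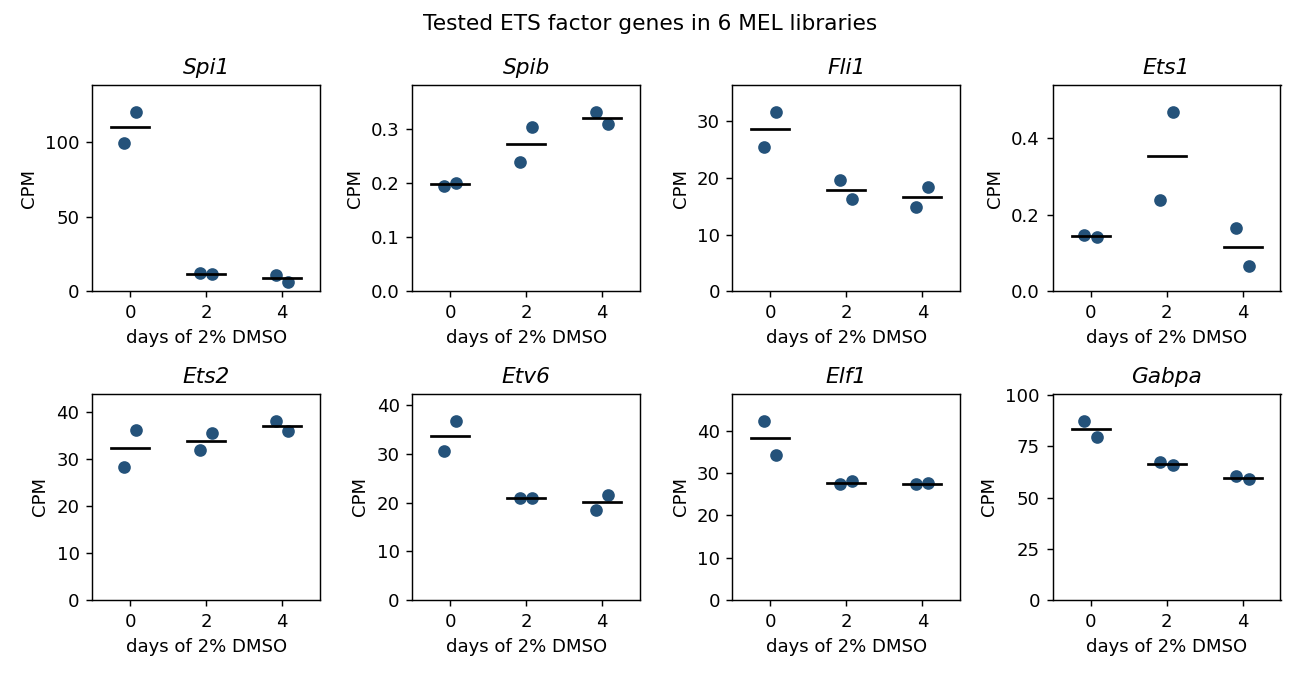
Normalised mRNA level (CPM, linear axis from 0, 1 panel per gene) of the 8 tested ETS genes against day in 2% DMSO, with each point 1 library and each bar the mean of the 2 libraries of a day. Spi1 drops from 99.2 and 120.0 CPM to below 13 CPM in all 4 treated libraries, while Fli1, Etv6, Elf1 and Gabpa keep over 50% of their day 0 mean and Ets2 stays between 28.5 and 38.2 CPM.

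The closest relatives of Spi1 stayed near or below the limit of detection on every day. Spib (NM_019866, chr7:44525995-44532087), which acts in B cells and plasmacytoid dendritic cells, had 8 and 10 counts on day 0, 10 and 15 on day 2 and 12 and 14 on day 4. Its levels stayed between 0.196 and 0.332 CPM, and the 0.68 log2 difference from day 0 to day 4 (SE 0.42) did not pass the test (edgeR adjusted p = 0.164), although both day 4 libraries lay above both day 0 libraries. Spic (NM_011461, chr10:88675269-88683023), which directs the iron-recycling macrophages of the spleen, had 1 count in 1 day 0 library and none in the other 5 libraries. It was below the expression filter, so no change was tested.

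Fli1 (NM_008026, chr9:32422204-32543432) promotes megakaryocytic over erythroid fate and is the other classical integration target of Friend virus. It was at 25.4 and 31.6 CPM on day 0, 19.6 and 16.2 CPM on day 2 and 15.0 and 18.3 CPM on day 4. The untreated libraries were the highest, and the day 2 and day 4 libraries overlapped. Fli1 fell by 0.68 on the log2 scale by day 2 (SE 0.16, edgeR adjusted p = 0.0031) and was 1.71-fold lower on day 4 than on day 0 (log2 -0.78, SE 0.16, edgeR adjusted p = 0.000974), with a last step of -0.10 (edgeR adjusted p = 0.657). Erg (NM_133659, chr16:95359169-95586600), its closest relative and a regulator of haematopoietic stem cells, had 2 counts in each day 0 library and none later. That is at the floor on every day, so Erg was not tested.

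Ets1 (NM_001038642, chr9:32636241-32757820), a lymphoid factor, was the one tested member whose fitted change was upward on day 2 and downward after it. It had 6 and 7 counts on day 0, 10 and 23 on day 2 and 6 and 3 on day 4, so that the whole record is 55 reads and the day 2 mean leans on 1 library. The values were 0.147 and 0.141 CPM, 0.239 and 0.468 CPM, and 0.166 and 0.0663 CPM. The rise to day 2 (log2 1.31, SE 0.52, edgeR adjusted p = 0.0459) and the fall to day 4 (log2 -1.67, SE 0.56, edgeR adjusted p = 0.0439) passed narrowly. Without replicate 2 of day 2 the rise was 0.73 with an edgeR adjusted p of 0.434, and by DESeq2 its adjusted p was 0.281. The fall was -1.09 without that library (edgeR adjusted p = 0.37) and -1.11 without replicate 2 of day 4 (edgeR adjusted p = 0.319), and it was also not called without replicate 1 of day 2 (-2.05, edgeR adjusted p = 0.0861) or of day 4 (-2.40, edgeR adjusted p = 0.0549). With the replicate number as a block neither was called (edgeR adjusted p = 0.0648 for the rise and 0.0636 for the fall). The rise was also not called without either day 0 library or without replicate 1 of day 4 (edgeR adjusted p = 0.0952, 0.131 and 0.0514). A second Ets1 transcript carried the same counts in every library, so its length, and any level per length, is uncertain.

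Ets2 (NM_011809, chr16:95702407-95721049), a target of Ras and MAP kinase signalling, was the abundant member with no call. Its levels were 28.5 and 36.3 CPM on day 0, 32.1 and 35.6 CPM on day 2 and 38.2 and 35.9 CPM on day 4, with the 2 day 0 libraries further apart than the day means. The difference from day 0 to day 4 was 0.19 on the log2 scale (SE 0.14, edgeR adjusted p = 0.217). It depended on 1 untreated library, because without replicate 2 of day 0 it was 0.37 (edgeR adjusted p = 0.0105).

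Etv6 (NM_007961, chr6:134035700-134270158), a transcriptional repressor needed in blood stem cells and platelets, was at 30.5 and 36.8 CPM on day 0, 20.9 and 20.8 CPM on day 2 and 18.5 and 21.6 CPM on day 4. All treated libraries lay below both untreated ones. The decrease was 0.69 on the log2 scale by day 2 (SE 0.13, edgeR adjusted p = 0.000994) and 1.68-fold by day 4 (log2 -0.75, SE 0.13, edgeR adjusted p = 0.000411), so that 92.4% of it had occurred by day 2.

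Elf1 (NM_007920, chr14:79481174-79582491), an activator of blood and endothelial genes, was at 42.3 and 34.3 CPM on day 0. All 4 treated libraries fell in a narrow band from 27.3 to 28.0 CPM. The decrease was 0.47 on the log2 scale by day 2 (SE 0.13, edgeR adjusted p = 0.00756) and 1.39-fold by day 4 (edgeR adjusted p = 0.00544), with a last step of -0.01. Scaling by total counts moved the median of all genes up by 0.21 between days 0 and 2. Under it the day 2 decrease was 0.27 and not called (edgeR adjusted p = 0.0921). Nor was the day 2 decrease called without either day 2 library (-0.45 without replicate 1 and -0.48 without replicate 2).

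Gabpa (NM_008065, chr16:84834891-84863783) encodes the DNA-binding subunit of GABP, also called nuclear respiratory factor 2, which activates mitochondrial and housekeeping genes. It was at 87.6 and 79.6 CPM on day 0, 67.4 and 65.9 CPM on day 2 and 60.7 and 58.9 CPM on day 4, with no overlap between any of the days. It decreased by 0.33 on the log2 scale to day 2 (SE 0.10, edgeR adjusted p = 0.0157) and was 1.40-fold lower on day 4 than on day 0 (SE 0.10 on the log2 scale, edgeR adjusted p = 0.00128). The last step, of -0.16 (SE 0.10), was not called (edgeR adjusted p = 0.265). Under total-count scaling the change to day 2 was -0.13 and not called (edgeR adjusted p = 0.312). The change to day 2 was -0.34 without replicate 1 of day 2 and -0.31 without replicate 2 of day 2, and not called in either case. Exons of Etv6, Elf1 and Gabpa overlap a gene on the opposite strand by 135, 327 and 298 bases. The strand setting of the counting is not given in the sources used here, so reads of those stretches may be shared.

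Of the 10 members 8 were tested. By day 2, 5 of these 8 were called lower (Spi1, Fli1, Etv6, Elf1 and Gabpa), beside 31.5% of all tested genes. In the other direction 1 was called higher (Ets1), beside 31.0% of tested genes. From day 2 to day 4, 1 member was called lower (Ets1) against 16.2% of tested genes and 0 were called higher against 14.0%. From day 0 to day 4 the same 5 were called lower against 36.4% of tested genes, and 0 were called higher against 35.5%. Of the 10, 8 passed the filter, and the median log2 fold change of these 8 was -0.40, -0.08 and -0.48 for the 3 comparisons, beside 0.01, -0.00 and -0.02 over all tested genes. Calls in either direction are common among all tested genes. With only 8 members tested, their counts are a description and do not set them apart. The comparisons share libraries, since days 2 and 4 were set against the same day 0 samples and both steps use the day 2 samples.

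The members called by day 2 depended on single libraries and on the scaling. Under total-count scaling 4 were called, and Elf1 and Gabpa were not among them. Without replicate 1 of day 2 the fitted decreases of Elf1 (-0.45) and Gabpa (-0.34) were also not called. Without replicate 2 of day 2 only Spi1 and Etv6 were called, while the fitted decreases of Fli1 (-0.54), Elf1 (-0.48) and Gabpa (-0.31) had edgeR adjusted p values of 0.054, 0.0531 and 0.114. The steps differed in 2 members, Spi1 and Ets1, where 30.0% of tested genes differed in either direction. For Ets1 that difference was -2.98 (SE 0.90, edgeR adjusted p = 0.0297) and rested on the same few reads. Without replicate 1 of day 0 the steps differed in 4 members, and without replicate 1 of day 2, replicate 2 of day 2 or replicate 2 of day 4 in 1.

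**Figure D2:**
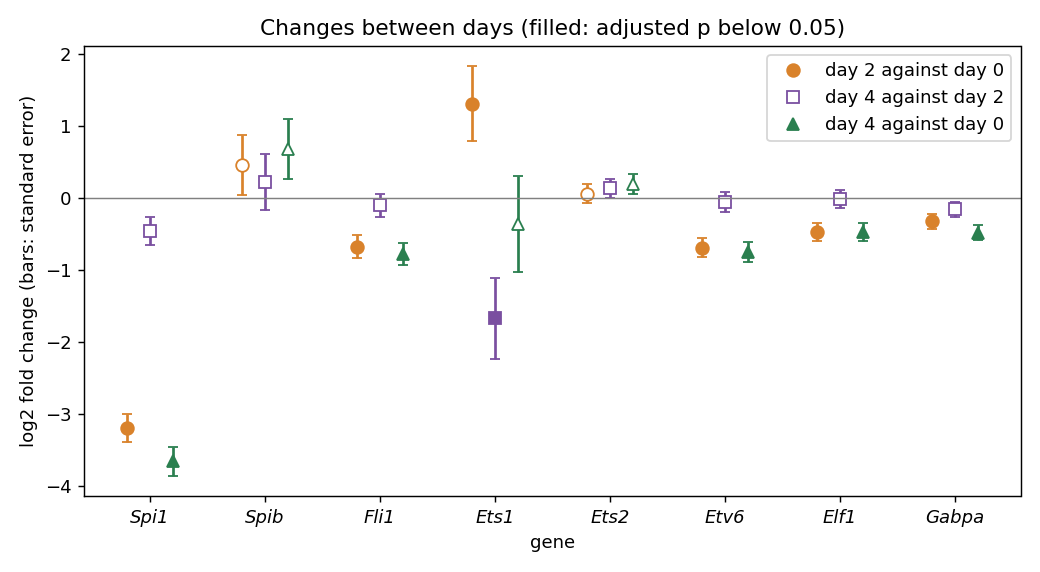
Fitted log2 fold change between days (points) with its SE (bars) for the 8 tested ETS genes: circles for day 2 against day 0, squares for day 4 against day 2 and triangles for day 4 against day 0, filled where the edgeR adjusted p was below 0.05. Spi1 stands at -3.20 by day 2 and -3.66 by day 4, the other decreases from day 0 that passed the test lie between -0.33 and -0.78, and Ets2 and Spib lie above 0 without a call.

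Levels were compared between genes per kilobase of transcript (CPM per kb). On day 0 Spi1 led with 53.9 CPM per kb, followed by Gabpa with 16.8. Elf1 (9.05), Fli1 (8.60) and Ets2 (8.33) came next, and the libraries of neighbours among these 3 overlapped. Etv6 followed at 6.07, and Ets1, Spib, Erg and Spic were all below 0.1.

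By day 2 the order had changed at the top. Gabpa led with 13.4 CPM per kb, ahead of Ets2 with 8.69 and Elf1 with 6.54, while Spi1 (5.86) and Fli1 (5.40) overlapped and Etv6 was at 3.76. On day 4 the order was Gabpa (12.0), Ets2 (9.53), Elf1 (6.49), Fli1 (5.02), Spi1 (4.30) and Etv6 (3.61), with Spi1 overlapping both of its neighbours. Spib and Ets1 remained near the bottom at 0.115 and 0.0588 CPM per kb.

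The make-up of the ETS mRNA pool shifted with these levels. Spi1 supplied 50.3% and 54.3% of the summed CPM per kb of the 10 members on day 0, 13.5% and 13.3% on day 2 and 12.7% and 8.09% on day 4. Gabpa supplied 18.1% and 14.7% on day 0 and 29.1% and 29.3% on day 4, and Ets2 went from 7.54% and 8.59% to 23.5% and 22.9%. The sum of the 10 members itself fell from 97.0 and 109 CPM per kb to 44.0 and 43.8, then to 41.8 and 40.4. The larger share of Ets2 came with no called change in its own level. Over all 26 ETS genes examined, the share of Spi1 was 33.9% and 36.9% on day 0 and 5.72% and 3.46% on day 4. The sum over these 26 was 144 and 160 CPM per kb on day 0. It was 91.7 and 93.1 on day 2 and 93.0 and 94.4 on day 4.

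**Figure D3:**
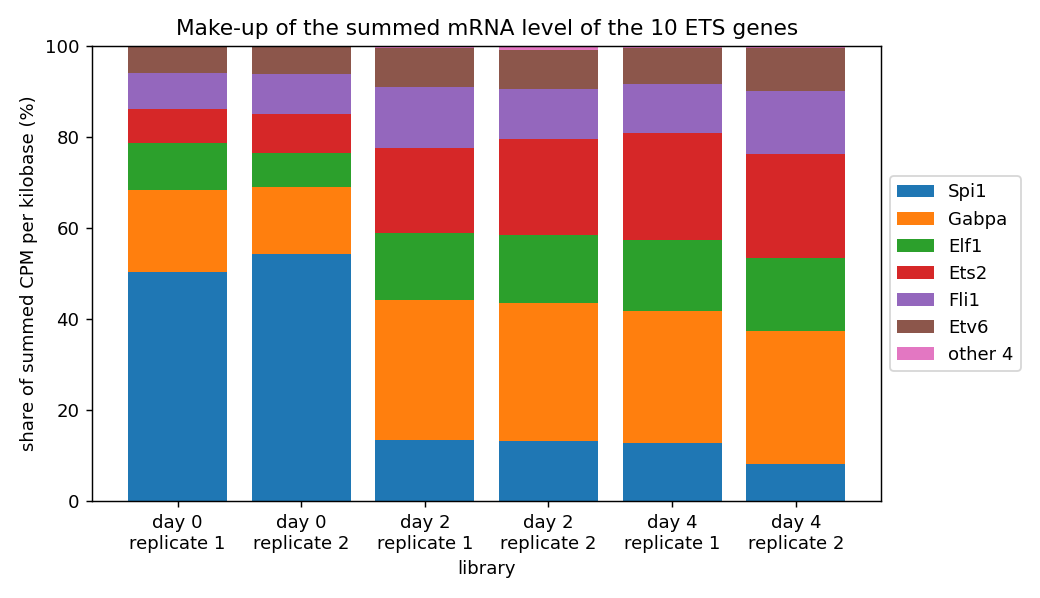
Share of the summed CPM per kilobase of the 10 ETS genes held by each gene (stacked bars, percent, 1 bar per library). Spi1 holds 50.3% and 54.3% on day 0 and 8.09% to 13.5% in the 4 treated libraries, where Gabpa and Ets2 hold the largest shares.

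Set against single partners per length, the level of Spi1 was 6.36 and 6.19 times that of Fli1 on day 0, 1.00 and 1.19 times on day 2 and 1.18 and 0.592 times on day 4. Against Gata1 it was 0.460 and 0.553 times on day 0, 0.0532 and 0.0494 on day 2 and 0.0388 and 0.0236 on day 4. Gata1 moved little beside this, from 202 ± 0.932 CPM on day 0 to 218 ± 8.16 on day 2 and 262 ± 1.44 on day 4 (SD, n = 2), a rise of 0.37 on the log2 scale by day 4 (SE 0.11, edgeR adjusted p = 0.00772). Most of the change in the Spi1 to Gata1 ratio was therefore in Spi1. The rise of Gata1 was at the threshold without replicate 2 of day 4 (0.36, edgeR adjusted p = 0.050).

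The other 16 ETS genes of the mouse examined here were mixed. Of these, 10 were tested, and from day 0 to day 4 5 were called higher and 3 lower, with a median log2 fold change of 0.25, beside 35.5% and 36.4% of all tested genes. Etv4, a member of the PEA3 subfamily induced by growth factor signalling, fell further than Spi1 by day 4 (log2 -6.55, SE 0.33, edgeR adjusted p = 4.65e-08). It was at 8.09 and 8.56 CPM on day 0, 0.192 and 0.346 CPM on day 2 and 0.111 and 0.0663 CPM on day 4. With 4 and 3 counts on day 4, Etv4 was next to the floor, so the size of its fall is uncertain. Its close relative Etv5 fell from 6.20 and 6.08 CPM to 1.05 and 0.794 CPM, then 0.693 and 0.574 CPM (log2 -3.28, SE 0.23, edgeR adjusted p = 4.22e-07). The ETS repressor Erf, whose day 0 libraries were far apart, fell from 30.1 ± 15.9 CPM on day 0 to 14.9 ± 0.909 CPM on day 4 (SD, n = 2; log2 -1.02, SE 0.28, edgeR adjusted p = 0.0061). The size of that fall rested on replicate 2 of day 0, without which it was -0.36 (edgeR adjusted p = 0.0343).

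Among the ETS genes that rose, Spdef, best known from secretory epithelium, had 2 and 0 counts on day 0, 15 and 23 on day 2 and 51 and 106 on day 4. Since day 0 was at the floor of 3 counts per library, Spdef was at least 28.0-fold higher on day 4. Elk1 and Elk3 are ternary complex factors, which act with serum response factor. Elk1 rose from 16.4 ± 2.85 CPM to 30.6 ± 0.9 CPM (log2 0.90, SE 0.14, edgeR adjusted p = 0.000152), and Elk3 from 5.03 ± 0.898 CPM to 8.98 ± 1.11 CPM (SD, n = 2; log2 0.84, SE 0.17, edgeR adjusted p = 0.000886).

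The list of partners and antagonists held 14 genes, of which 12 were tested, 4 were called higher and 6 lower from day 0 to day 4, and the median log2 fold change was -0.35. These counts were read beside 35.5% of all tested genes called higher and 36.4% called lower. Tal1, an erythroid factor that works with GATA-1, rose by 1.92 (SE 0.14, edgeR adjusted p = 4.37e-07). Runx1, which partners ETS factors on myeloid and megakaryocytic genes, was at 17.6 and 17.5 CPM on day 0, 23.2 and 21.8 on day 2 and 26.8 and 25.1 on day 4 (log2 0.56, SE 0.12, edgeR adjusted p = 0.00112). Cbfb, the subunit that stabilises RUNX proteins on DNA, moved the other way and fell by 1.98 on the log2 scale (SE 0.11, edgeR adjusted p = 1.04e-07).

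Cebpb, a myeloid partner of PU.1, fell by 1.62 on the log2 scale (SE 0.13, edgeR adjusted p = 1.05e-06). Jun, which PU.1 can bind as a co-activator, had 59 reads in all and a log2 fold change of -1.97 (SE 0.52, edgeR adjusted p = 0.0054). Irf8, with which PU.1 binds composite sites in myeloid and B cells, had no count in any library, and Irf4 had 1. Klf1, an erythroid factor that opposes Fli1, was at 192 and 309 CPM on day 0 and 173 and 171 CPM on day 4 (log2 -0.54, SE 0.18, edgeR adjusted p = 0.0188). Gabpb1, 1 of 2 genes for the GABP subunit that carries the activation domain, rose from 12.3 and 9.23 CPM to 14.9 and 15.1 CPM (log2 0.49, SE 0.15, edgeR adjusted p = 0.0132), so that the Gabpa to Gabpb1 ratio per length went from 3.94 and 4.76 to 2.25 and 2.15. The other beta subunit gene, Gabpb2, was far more abundant (73.7 CPM per kb on day 0, against 3.90 for Gabpb1) and moved the other way, from 670.3 and 607 CPM on day 0 to 378 and 411 CPM on day 4 (log2 -0.70, SE 0.12, edgeR adjusted p = 0.000302). An antisense gene, Gm16740, overlaps the 5′ end of Gabpb2, so some of its reads may be shared. The calls of both Klf1 and Gabpb1 depended on replicate 2 of day 0, without which they were at -0.17 (edgeR adjusted p = 0.156) and 0.28 (edgeR adjusted p = 0.0817). The call of Jun was lost by DESeq2 (adjusted p = 0.0665).

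Myeloid and lymphoid genes that PU.1 is known to activate fell in larger numbers than they rose. Of 24 such genes 16 were tested. By day 2, 13 were called lower and 2 higher, and from day 0 to day 4, 11 were called lower and 1 higher. Over all tested genes 31.5% were called lower and 31.0% higher by day 2, and 36.4% and 35.5% by day 4. Their median log2 fold change was -1.48 by day 2 and -1.77 by day 4, beside 0.01 and -0.02 over all tested genes. A gene could pass the filter through day 0 alone, so these counts describe the list and do not test it.

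Tyrobp, a signalling adaptor of myeloid receptors, had 290 and 250 counts on day 0, 12 and 11 on day 2 and 1 and 1 on day 4, which makes it at least 81.3-fold lower on day 4. The Fc receptor gene Fcgr1 went from 17.0 and 19.2 CPM to 4.89 and 3.68, then 1.88 and 1.10 CPM (log2 -3.62 by day 4, SE 0.24, edgeR adjusted p = 2.58e-07). Fcgr3, the gene of another activating Fc receptor, went from 10.2 and 9.01 CPM to 1.32 and 1.22, then 0.942 and 0.818 CPM (log2 -3.45, SE 0.20, edgeR adjusted p = 1.21e-07). The macrophage growth factor receptor gene Csf1r was low throughout and uneven, at 1.25 and 1.11 CPM on day 0, 0.192 and 0.529 on day 2 and 0.859 and 0.420 on day 4, and was called lower by day 2 (log2 -1.66, SE 0.43, edgeR adjusted p = 0.0061) but not by day 4 (log2 -0.91, SE 0.41, edgeR adjusted p = 0.0635). These calls moved with 1 library: without replicate 1 of day 2 the first was -1.15 (edgeR adjusted p = 0.0749), and without replicate 1 of day 4 the second was -1.48 (edgeR adjusted p = 0.0203).

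Csf2rb, the shared receptor chain for IL-3, IL-5 and GM-CSF, was the 1 gene of this list called higher from day 0 to day 4. It was at 378 and 385 CPM on day 0, 513 and 600.2 on day 2 and 1437 and 1312 on day 4 (log2 1.85, SE 0.13, edgeR adjusted p = 4.7e-07). Its near-identical neighbour Csf2rb2 can share reads with it, so the level of Csf2rb is uncertain. The 2 genes of the list called higher by day 2 were Csf2rb and Lyz2. Lyz2 was low, at 0.441 and 0.262 CPM on day 0, 1.72 and 1.22 on day 2 and 0.471 and 0.221 on day 4. It rose by 2.08 on the log2 scale to day 2 (SE 0.38, edgeR adjusted p = 0.000699). It then fell by 2.12 to day 4 (SE 0.39, edgeR adjusted p = 0.00286).

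**Figure D4:**
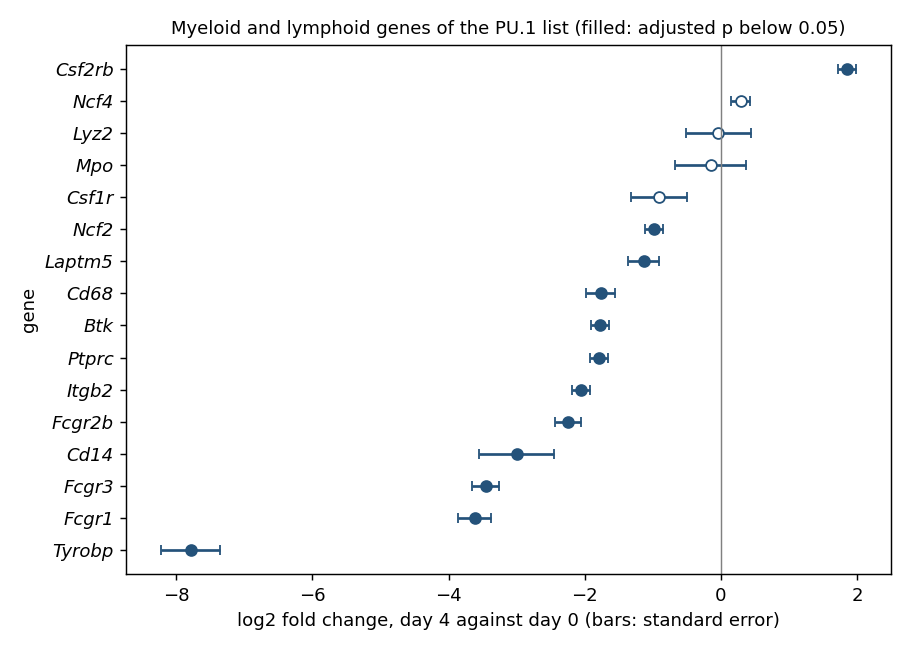
Fitted log2 fold change from day 0 to day 4 (points, with SE bars) of the tested myeloid and lymphoid genes known as PU.1 targets, with filled points for edgeR adjusted p below 0.05. Of 16 tested genes 11 lie below 0 and are called lower and Csf2rb is called higher at 1.85; the fitted values of Tyrobp and Cd14, which were at the floor on day 4, are not bounds.

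Megakaryocytic genes associated with FLI1 were called in both directions. Of 14 genes 10 were tested, and from day 0 to day 4, 4 were called higher and 6 lower, with a median log2 fold change of -0.62, where 35.5% of all tested genes were called higher and 36.4% lower. Those that rose included Vwf, the gene of von Willebrand factor (log2 3.75, SE 0.20, edgeR adjusted p = 6.79e-08), Gp1ba, a chain of its platelet receptor (log2 2.51, SE 0.24, edgeR adjusted p = 3.89e-06), and the integrin gene Itga2b (log2 1.38, SE 0.13, edgeR adjusted p = 2.39e-06). Gp5, another subunit of the same receptor complex, fell by 3.30 on the log2 scale (SE 0.21, edgeR adjusted p = 1.94e-07), and Itgb3, whose product pairs with that of Itga2b, fell by 2.56 (SE 0.32, edgeR adjusted p = 3.04e-05). The platelet chemokine gene Ppbp had 13 and 18 counts on day 0 and none on day 4, and was at least 4.56-fold lower there.

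Among mitochondrial genes known as GABP targets, all 10 were tested, and from day 0 to day 4, 5 were called lower and 0 higher, with a median log2 fold change of -0.35. The 5 called lower are not far above the 36.4% of all tested genes called lower, and 35.5% were called higher. The list was not uniform between the days. By day 2, 7 were called lower and 1 higher, beside 31.5% and 31.0% of all tested genes. From day 2 to day 4, 3 were called lower and 2 higher, beside 16.2% and 14.0%. The largest called decrease from day 0 to day 4 was in Tfam, which packages mitochondrial DNA (log2 -1.16, SE 0.11, edgeR adjusted p = 3.8e-06). Next came Sdhb, a subunit of succinate dehydrogenase (log2 -1.04, SE 0.10, edgeR adjusted p = 3.96e-06). Then came Tfb1m, a mitochondrial rRNA methyltransferase (log2 -0.68, SE 0.18, edgeR adjusted p = 0.00547). Without replicate 2 of day 4 Tfb1m was at -0.50 and no longer called (edgeR adjusted p = 0.0567).

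The genes whose course over the 6 libraries lay closest to that of Spi1 were found among 10315 genes, by the root mean square difference of centred log2 CPM. They were Gcat (0.16), an enzyme of threonine breakdown, Hk2 (0.22), Pgam1 (0.23) and Ldha (0.23), which are enzymes of glycolysis, and Gdf15 (0.23), a stress-induced cytokine. Mean levels on days 0, 2 and 4 were 75.2, 8.84 and 5.72 CPM for Gcat and 154, 17.7 and 10.2 CPM for Hk2. Ldha was far more abundant, at 1193, 133 and 87.7 CPM. Pgam1 and Ldha have processed pseudogenes that can share their reads, so their levels are uncertain.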

How the data were processed

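mRNA-seq libraries of MEL cells at 0, 2 and 4 d of 2% DMSO were grouped by the day and replicate number in their labels. The authors deposited raw read counts per RefSeq transcript for each library. Libraries were poly(A)-selected and stranded, and the submitters' processing notes name cutadapt, TopHat, HTSeq, DESeq2 and mm10. The HTSeq version, its strand setting and its handling of shared reads are not given in the sources used here. Reads assigned to no feature, 44340060 to 63927765 per library, were left out. They made up 50.5% to 58.4% of the sum of these reads and the transcript counts. In that sum a read shared by several transcripts appears to count for each.

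Symbols were matched through a RefSeq table (GRCm38.p6; 32195 of 32654 transcripts) and GENCODE M21 (191 more). The test was edgeR 4.0.16 in R 4.3.3: filterByExpr by day, TMM factors (0.921 to 1.07), 1 quasi-likelihood fit over all 6 libraries and Benjamini-Hochberg adjustment over 18351 transcripts, with a call at adjusted p below 0.05. SEs came from the fold change and the F statistic. Gene counts use the most abundant transcript of each of 12381 tested genes. CPM is per TMM-scaled library size, and CPM per kb divides by transcript length. The floor is 3 counts in every library of a day, and floors and bounds cover counting error only. The p-values measure the spread between these libraries, with 2 per day.

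Alternatives were DESeq2 1.42.0, RLE factors, total counts, library sizes without globin transcripts, a fit with 1 transcript per gene, no filter, only the 2 days compared, a replicate block, and leaving out each library in turn.

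All 10 members are named. From each list up to 3 called genes per direction with the largest fold change from day 0 to day 4 are named, plus Gata1, Klf1, Gabpb1, Irf8, Runx1 and Csf1r, and the 5 genes most like Spi1. Irf4, Gabpb2, Pf4, Gp9 and Lyz2 were named after their values were seen. The members and lists were chosen with earlier results of these data known.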

Additional observations from a re-analysis of the deposited data

How the results depend on the processing

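The fall of Spi1 from day 0 kept its direction and its call under every alternative run. Leaving out 1 library at a time gave log2 fold changes of -3.33 to -3.06 for day 2 and -4.04 to -3.34 for day 4. Its step from day 2 to day 4 passed the threshold with no filter (-0.46, edgeR adjusted p = 0.00634), with only the 2 days compared (-0.47, edgeR adjusted p = 0.0446) and without either day 0 library, and ranged from -0.84 to -0.14 with 1 library left out. Members called by day 2 numbered 6, and 2 to 6 with 1 library left out. From day 2 to day 4, where 1 member was called, 0 were by DESeq2, 2 with no filter, 2 with only the 2 days compared and 0 to 2 with 1 library left out. Members whose steps differed numbered 2, with 3 when no filter was used and 1 to 4 with 1 library left out. With the replicate number as a block, 0 members were called from day 2 to day 4, and Spi1 was at -3.21 by day 2, -0.47 for the last step (edgeR adjusted p = 0.115) and -3.67 by day 4. The libraries share only a number across days, with correlations of replicate differences of 0.032 to 0.079 between days.

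Over 437 values of single members, 391 kept direction and side of the threshold, 23 lost the call, 11 gained one and 12 turned in sign. No value that turned had been called. With 1 library left out, Ets2 ranged from -0.10 to 0.24 by day 2, the last steps of Fli1, Etv6 and Elf1 from -0.26 to 0.037, -0.18 to 0.048 and -0.030 to 0.0043, and Ets1 from -1.09 to 0.20 by day 4. The difference between steps ranged from -0.55 to 0.14 for Spib and -0.11 to 0.23 for Ets2, and under total-count scaling was -0.21 for Ets2 and -0.11 for Gabpa. The cause of these turns was not tested. Counts called from day 0 to day 4 stayed within 1.5 times in all 5 lists. These list counts and the named list genes were run under the alternatives after the data were seen. Over 420 values of the named genes of the lists, 409 kept direction and side of the threshold, 9 lost the call and 2 gained one. DESeq2 gave no adjusted p for the last step of Ets1 or its difference between steps. Total-count scaling raised the share of higher calls from 49.6% to 63.4% by day 2 and lowered it from 46.4% to 32.7% for the last step. Spic, Erg, Spib and Ets1 are limited by depth, with at most 23 counts in a library.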
